A study of Homo sapiens with 42 samples.

Results

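The nuclear-encoded subunits of the mitochondrial respiratory chain and ATP synthase were followed in Hep3B cells, a human hepatoma line, on 42 arrays of total RNA. The genes were chosen by symbol: probes naming a single gene that starts with NDUFA, NDUFB, NDUFC, NDUFS, NDUFV, SDH, UQCR, COX4 to COX8 or ATP5, or is CYC1. This took 73 of the 5631 genes named on the arrays, and each gene was represented by its brightest probe. Of the 73 genes, 65 encode subunits: 30 of complex I, 1 of complex II, 8 of complex III, 10 of complex IV and 16 of complex V. The other 8 were caught by the prefix alone: the complex I assembly factors NDUFAF2, NDUFAF3, NDUFAF5, NDUFAF7 and NDUFAF8, the supercomplex assembly protein COX7A2L, the ATP synthase inhibitor ATP5IF1 and the pseudogene SDHCP5. They are described apart from the subunits.

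Cultures received CM, a medium enriched in pro-inflammatory cytokines, or the control medium NCM, and were taken at T0, 15 min, 30 min, 1 h, 3 h, 6 h or 16 h. Each of the 14 groups held 3 cultures, from independent experiments numbered 1 to 3. The CM and NCM culture of the same number and time formed a pair made from cells trypsinized together. The labels do not say that a number marks the same cells at different times. The labels name neither the cytokines nor any other difference between CM and NCM, and all groups share the 1 cell line. Differences are given as CM minus NCM on the log2 scale of the probe's intensity.

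Respiratory complexes I and II pass electrons from NADH and succinate to ubiquinone, complex III passes them to cytochrome c, and complex IV passes them to oxygen. Complexes I, III and IV pump protons across the inner mitochondrial membrane, and complex V, the ATP synthase, uses the returning protons to make ATP. A few core subunits of complexes I, III, IV and V are encoded in mitochondrial DNA, and all other subunits are nuclear. Hepatocytes are rich in mitochondria, and inflammatory cytokines are known to shift hepatocytes to making acute phase proteins. None of the 13 subunits encoded in mitochondrial DNA was analysed here, and of the 22 core nuclear subunits listed for description 16 were analysed.

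Of the 8 liver-cell markers, ALB, AFP, TF, APOH and SERPINA1 lay at the 91st percentile of mean intensity among the named genes or higher, APOA1 lay at the 85.5 percentile, TTR at 77.7 and FGB at 74.1. Of the markers of other cells, CD14 lay at the 74.1 percentile, COL1A1 at 60.3, PECAM1 at 47.5, PTPRC at 38.4 and VWF at 3.89, and the other listed markers were not analysed here. Intensity also depends on the probe, so percentiles do not rank mRNA amounts. Arrays correlated at 0.807 to 0.952 with the mean of the others, and 5 arrays lay under 0.87, each in a different pair: CM at 30 min in experiment 2, CM at 3 h in experiment 1, and NCM at T0 in experiment 2, at 15 min in experiment 1 and at 1 h in experiment 1. In a bulk sample, fewer cells and less RNA per cell cannot be told apart.

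No respiratory chain gene passed the test between CM and NCM at any time. In limma with Benjamini-Hochberg adjustment over all 13824 probes, 0 of the 73 genes had an adjusted p under 0.05 at each of the 7 times, or in 3 means over times: the early mean (15 min, 30 min, 1 h), the late mean (3 h, 6 h, 16 h) and the mean of all 6 times after T0. The same holds for nearly all genes here: 0.0178% of the 5631 genes passed at 16 h, 0.0533% in the late mean, and 0 at the other times and in the other means. At an unadjusted p under 0.05 the 73 genes gave 1 lower and 0 higher at T0, where all genes gave 3.14% lower and 2.31% higher. The counts were 1 lower and 1 higher at 15 min (all genes 1.23% and 1.97%), 1 and 1 at 30 min (1.97% and 2.20%), and 4 and 1 at 1 h (2.10% and 2.34%). They were 3 lower and 0 higher at 3 h (1.63% and 1.70%), 2 and 2 at 6 h (1.67% and 1.69%), and 0 and 3 at 16 h (1.79% and 2.89%). In the early mean they were 5 lower and 0 higher (3.05% and 3.25%), in the late mean 1 and 3 (2.22% and 3.16%), and in the mean of the 6 times after T0 4 and 1 (2.59% and 3.16%).

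A few genes of the cytokine response passed the test on the same arrays. Of 8 cytokine-response genes (NFKBIA, NFKB1, IL32, CFB, ORM1, CEBPD, CXCL2 and CCL20), 2 passed as higher in CM in the late mean and 1 at 16 h. All 8 lay above 0 in both comparisons, with medians of 0.58 and 0.55, where 50.4% and 53.0% of all genes lay above 0. At 3 h, where 0 of the 8 passed, the median was 0.69. These genes were listed with their response in these data known, so their calls are not an independent check of the test. With any 1 experiment left out, 0 of all probes passed at 16 h or in the late mean.

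**Figure D1:**
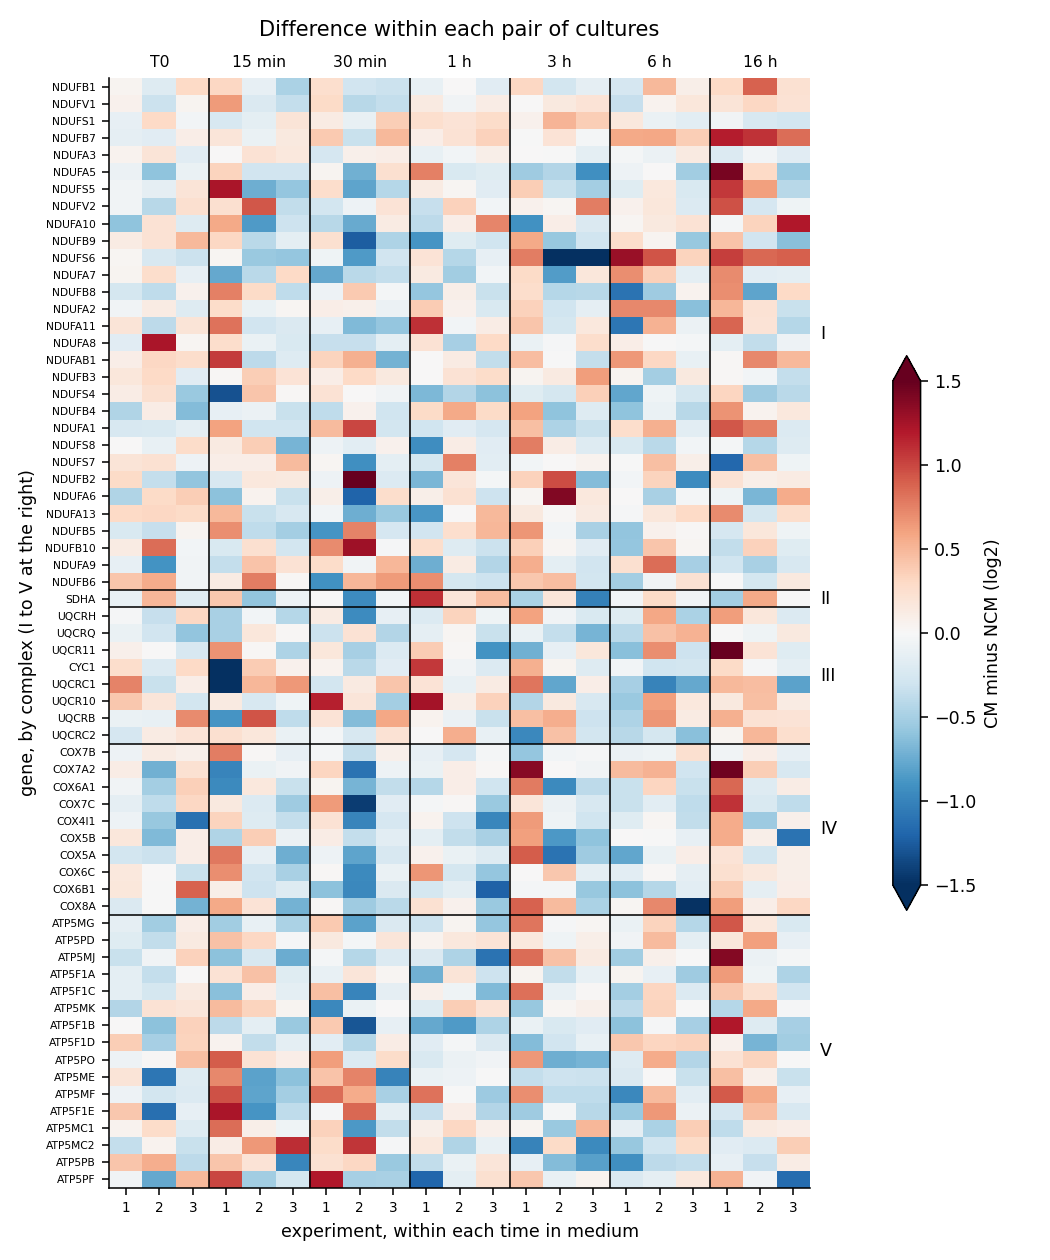
Difference within each of the 21 pairs of cultures for the 65 subunit genes. Rows are genes grouped by complex I to V, columns are experiments 1 to 3 within each time, and colour gives CM minus NCM on the log2 scale, red for higher in CM and blue for lower. At 16 h the NDUFB7 and NDUFS6 rows are red in all 3 experiments, and at 30 min the complex IV block is blue in experiment 2.

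Promoters of 63 of the 73 genes were found in RefSeq (GRCh38.p14), as windows of 250 bases before to 50 after the gene start, and were searched on both strands for letters bound by known regulators of mitochondrial genes. The exact NRF1 palindrome, GCGCA followed by TGCGC, was in 4 of 63 windows (6.35%), against 2.32% of 4694 genes on the arrays and 1.36% of all 27305 windows. With 1 free base, GCGCA and GCGC on either side of any base, which includes the palindrome, it was in 14 of 63 (22.2%), against 11.7% and 6.28%. The ETS letters CCGGAAGT, read by GABP, were in 9 of 63 (14.3%), against 8.86% and 4.44%, and the YY1 letters AAGATGGC in 10 of 63 (15.9%), against 5.84% and 3.03%. Complex IV held the NRF1 letters with 1 free base in 0 of 9 windows and AAGATGGC in 0 of 9, and CCGGAAGT in 2, those of COX5B and COX8A. Complexes I, III and V held these NRF1 letters in 5 of 27, 3 of 6 and 4 of 13 windows. They held AAGATGGC in 6 of 27, 1 of 6 and 3 of 13. The 9 windows of complex IV are too few to set its counts apart from the shares of genes on the arrays. The 150 bases before the start are printed for the members with the most frequent or largest differences in complexes I, IV and V that had an entry, and for COX5B as a window with the ETS letters. They are written 5′ to 3′ on the gene's strand, with any searched letters in capitals.
NDUFB7: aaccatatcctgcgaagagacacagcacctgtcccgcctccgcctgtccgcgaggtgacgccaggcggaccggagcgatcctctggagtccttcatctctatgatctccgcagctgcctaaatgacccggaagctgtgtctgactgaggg
COX6B1: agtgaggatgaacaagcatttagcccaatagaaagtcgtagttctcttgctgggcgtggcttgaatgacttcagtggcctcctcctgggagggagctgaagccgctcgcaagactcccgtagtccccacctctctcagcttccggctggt
ATP5MJ: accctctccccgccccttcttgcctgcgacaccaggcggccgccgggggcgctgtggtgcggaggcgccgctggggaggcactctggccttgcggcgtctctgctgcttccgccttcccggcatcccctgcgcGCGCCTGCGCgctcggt
COX5B: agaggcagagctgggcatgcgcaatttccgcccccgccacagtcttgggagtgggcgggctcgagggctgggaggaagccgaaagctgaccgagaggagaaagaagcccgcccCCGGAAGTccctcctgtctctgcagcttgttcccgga
These lie at chr19:14572067-14572216 on the minus strand for NDUFB7, chr19:35648173-35648322 on the plus strand for COX6B1, chr14:103921530-103921679 on the minus strand for ATP5MJ and chr2:97645912-97646061 on the plus strand for COX5B. The capitals mark the NRF1 letters with 1 free base, read from the other strand, at -17 to -8 of ATP5MJ and CCGGAAGT at -37 to -30 of COX5B, counted from the start. NDUFB7 and COX6B1 hold none of the searched letters in these 150 bases. A match is a description of letters and not of binding.

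NDUFB7, an accessory subunit in the membrane arm of complex I, came nearest to the threshold. At 16 h its log2 intensity was 1.81, 2.01 and 1.79 in CM cultures of experiments 1, 2 and 3, against 0.63, 0.93 and 0.95 in NCM cultures. All 3 CM values lay above all 3 NCM values, and the mean difference was 1.04 (SE 0.17), a 2.05-fold higher intensity in CM, with a limma adjusted p of 0.0540. At 6 h the values were 1.90, 1.88 and 1.93 in CM cultures against 1.33, 1.30 and 1.57 in NCM cultures, again without overlap, with a difference of 0.51 (SE 0.17, limma adjusted p 0.999). At T0 the groups overlapped, with 1.90, 1.46 and 2.10 in CM cultures against 2.03, 1.63 and 2.002 in NCM cultures.

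The NDUFB7 difference was 0.53 (SE 0.10) in the late mean, higher in CM in 7 of 9 pairs, with a limma adjusted p of 0.0525. Over the 6 times after T0 it was 0.35 (SE 0.07), higher in 14 of 18 pairs, with a limma adjusted p of 0.166. CM cultures averaged 1.87 at 16 h and 1.82 at T0. In NCM cultures the difference between 16 h and T0 was -1.05 (SE 0.32, limma adjusted p 0.998). A second, dimmer probe of NDUFB7 gave 0.61 at 16 h (SE 0.30), higher in CM in 2 of 3 pairs. The call of NDUFB7 at 16 h depended on the processing: its adjusted p was 0.0228 without the dimmest 25% of probes, 0.506 with values as deposited and 1.00 with no pair term, and 0.762 to 0.846 when 1 experiment was left out.

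NDUFS6, an accessory subunit in the matrix arm of complex I that binds zinc, had a like pattern at 16 h, with 0.13, -0.15 and 0.03 in CM cultures against -0.90, -1.01 and -0.87 in NCM cultures. The groups did not overlap, and the difference was 0.93 (SE 0.32, limma adjusted p 0.942). At 6 h the difference was 0.86 (SE 0.32), higher in CM in 3 of 3 pairs. At 3 h it was -0.81, with -0.16, -1.76 and -1.72 in CM cultures against -0.93, -0.15 and -0.13 in NCM cultures: higher in CM in experiment 1 and lower in the other experiments. The CM array at 3 h in experiment 1 is among the 5 least correlated arrays. Without the pairs of those arrays the difference at 3 h was -1.60 (limma adjusted p 0.0401). That value rests on experiments 2 and 3 alone, which were both lower in CM, and leaving out these pairs was chosen after seeing the data. Over all alternatives the difference at 3 h ran from -1.60 to -0.29. The dimmer probe of NDUFS6 went against the brighter one at 16 h, with -0.40, lower in CM in 3 of 3 pairs, and the mean of both probes gave 0.27.

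The other complex I members had smaller differences at 16 h. NDUFB1, a membrane-arm accessory subunit, had 2.60, 2.66 and 2.47 in CM cultures at 16 h against 2.30, 1.78 and 2.24 in NCM cultures, a difference of 0.47 (SE 0.21, limma adjusted p 0.942) without overlap. At 16 h, 17 of 30 complex I genes lay above 0, with a median of 0.13 and a range of -0.34 to 1.04. Among the core subunits that carry flavin or iron-sulfur clusters, the differences at 16 h were 0.24 for NDUFV1, which binds NADH and flavin, 0.21 for NDUFV2, -0.19 for NDUFS1, -0.26 for NDUFS7 and -0.21 for NDUFS8. The core subunits thus lay on both sides of 0, and over the 6 times after T0 these 5 differed by -0.11 to 0.12.

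Earlier in the course, NDUFS4, an accessory subunit of the matrix arm, had a difference of -0.58 at 1 h (SE 0.26), lower in CM in 3 of 3 pairs. NDUFA5, another accessory subunit of the matrix arm, had -0.63 at 3 h (SE 0.29), also lower in 3 of 3 pairs. NDUFB10, a membrane-arm subunit, had 0.66 at 30 min (SE 0.25), higher in 2 of 3 pairs, and 0.35 once the least correlated pairs were left out. In the early mean, NDUFA7 had -0.31 and NDUFB9 had -0.34, each lower in 7 of 9 pairs. The limma adjusted p of these values was 0.694 or higher.

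**Figure D2:**
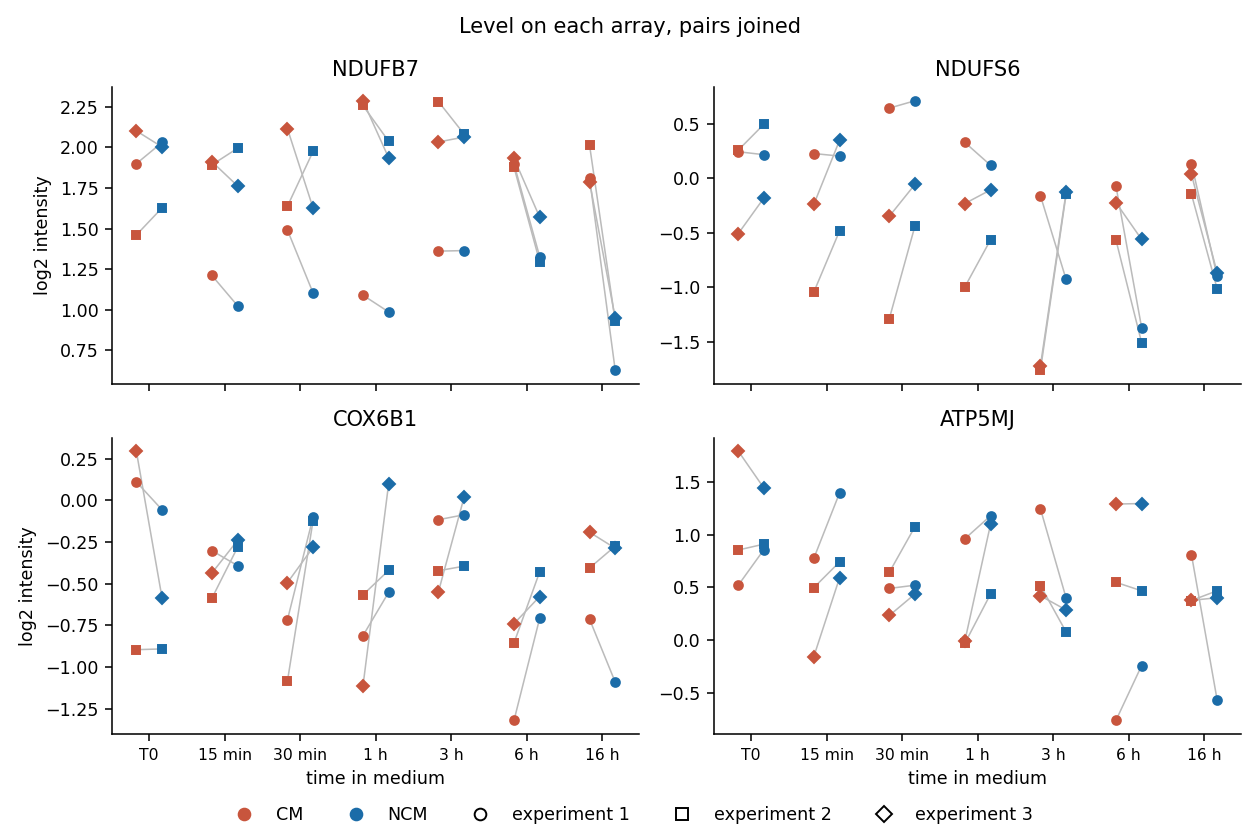
Log2 intensity of NDUFB7, NDUFS6, COX6B1 and ATP5MJ on each of the 42 arrays, by time in medium. Red points are CM cultures and blue points NCM cultures, the marker gives the experiment, and grey lines join pairs. At 16 h the CM values of NDUFB7 (1.79 to 2.01) and of NDUFS6 (-0.15 to 0.13) lie above all NCM values, and at 30 min the CM values of COX6B1 (-1.09 to -0.49) lie below all NCM values.

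Complex II was represented by SDHA, its flavin-carrying catalytic subunit, alone. At 1 h SDHA had -1.46, -0.15 and -0.32 in CM cultures against -2.56, -0.33 and -0.78 in NCM cultures. It was higher in CM in 3 of 3 pairs, with a difference of 0.58 (SE 0.27, limma adjusted p 0.977), and the groups overlapped. With the least correlated pairs left out, the SDHA difference at 1 h was 0.32. At 30 min the difference was -0.33 and at 3 h it was -0.44, so the sign did not hold between neighbouring times.

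In complex III the median lay between -0.10 and 0.06 from T0 to 6 h, while single genes reached -0.75 at 6 h and 0.56 at 1 h. At 16 h all 8 genes lay above 0, from 0.03 to 0.52, with a median of 0.22, where 53.0% of all genes lay above 0. UQCR11, a small accessory subunit, had the 0.52, made of 0.07, -0.42 and 0.15 in CM cultures against -1.47, -0.63 and 0.34 in NCM cultures, so that experiment 1 gave most of it. Without experiment 1 the complex III median at 16 h was 0.03. UQCRC1, a core subunit, had 0.50, -1.59 and -1.03 in CM cultures at 6 h against 1.00, -0.60 and -0.27 in NCM cultures, lower in CM in 3 of 3 pairs, with a difference of -0.75 (SE 0.36, limma adjusted p 0.999). Its partner core subunit UQCRC2 had -0.43 at 6 h. CYC1, the cytochrome c1 subunit, had -0.54 at 15 min, with -2.16, -0.36 and -0.49 in CM cultures against -0.09, -0.74 and -0.56 in NCM cultures. Only experiment 1 was lower in CM there, its NCM array is among the least correlated, and without experiment 1 the CYC1 difference was 0.23.

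Complex IV, cytochrome c oxidase, had the lowest median at 30 min among the complexes with several measured genes. All 10 genes lay below 0 there, from -0.60 to -0.11, with a median of -0.33, where 51.6% of all genes lay below 0. Within experiments the median was 0.03 in experiment 1, -0.88 in experiment 2 and -0.19 in experiment 3, and 3, 10 and 9 of the 10 genes were lower in CM. The CM array at 30 min in experiment 2 is among the least correlated, and without its pair the complex IV median was -0.03. In the early mean all 10 genes again lay below 0, with a median of -0.20, against 51.9% of all genes, and the median without the least correlated pairs was -0.18. At T0, 8 of the 10 genes already lay below 0, with a median of -0.10, and after that difference was subtracted the early mean was -0.07.

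COX6B1, a subunit on the intermembrane-space face of the enzyme, had the lowest value of complex IV at 30 min. Its log2 intensity was -0.72, -1.09 and -0.49 in CM cultures against -0.10, -0.12 and -0.28 in NCM cultures. The groups did not overlap, and the difference was -0.60 (SE 0.23, limma adjusted p 0.997). At 1 h the values were -0.81, -0.57 and -1.12 in CM cultures against -0.55, -0.42 and 0.10 in NCM cultures, a difference of -0.54 (SE 0.23, limma adjusted p 0.977), again without overlap. COX6B1 was lower in CM in 8 of 9 pairs from 15 min to 1 h, with a mean of -0.43 (SE 0.13, limma adjusted p 0.686), and in 15 of 18 pairs after T0, with a mean of -0.30 (SE 0.09, limma adjusted p 0.658). At T0 it was 0.35 and at 16 h 0.11.

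COX6A1, a subunit for which 2 probes were measured, gave -0.31 with the brighter and -0.32 with the dimmer probe in the early mean. COX4I1, a subunit that contacts the mitochondrially encoded core of the enzyme, had 0.42, 0.24 and -0.77 in CM cultures at T0 against 0.49, 0.80 and 0.35 in NCM cultures, a difference of -0.59 (SE 0.27, limma adjusted p 0.973). It was lower in CM in 3 of 3 pairs at T0, and its difference was -0.34 at 30 min and 0.03 at 16 h. COX5A and COX5B, subunits of the matrix face, had -0.37 and -0.13 at 30 min. COX7A2 had the highest value of complex IV at 16 h, 0.53, and its late mean was 0.40 (SE 0.19), higher in CM in 6 of 9 pairs. Experiment 1 gave most of it, with 0.50 at 3 h and 0.63 at 16 h in CM, against -0.86 and -0.83 in NCM.

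**Figure D3:**
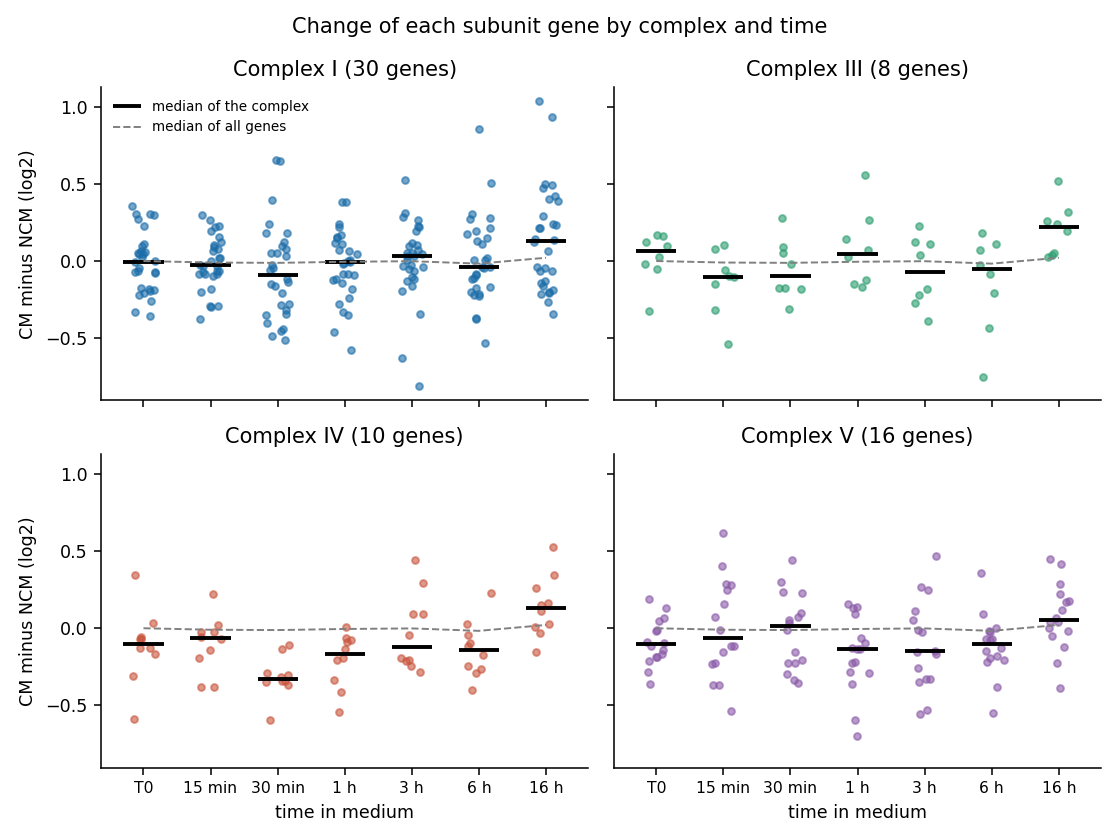
Difference between CM and NCM of each subunit gene of complexes I, III, IV and V, on the log2 scale, at the 7 times. Points are genes (means over 3 pairs), black bars the median of the complex and the dashed line the median of all genes. The complex IV median is -0.33 at 30 min with all 10 genes below 0, and at 16 h the medians of complexes I, III, IV and V are 0.13, 0.22, 0.13 and 0.05.

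In complex V the median lay at or below 0.01 from T0 to 6 h, and 13 of 16 genes lay below 0 at 6 h, with a median of -0.10 where 52.7% of all genes lay below 0. By experiment that median was -0.31, 0.20 and -0.15, and with 1 experiment left out it ran from -0.26 to 0.02. ATP5F1B, the catalytic beta subunit, had 0.20, -1.02 and -0.21 in CM cultures at 1 h against 0.97, -0.17 and 0.25 in NCM cultures. It was lower in CM in 3 of 3 pairs, with a difference of -0.70 (SE 0.29, limma adjusted p 0.977). Over the times after T0 it was lower in CM in 16 of 18 pairs, with a mean of -0.30 (SE 0.12, limma adjusted p 0.821), and 1 of the exceptions was experiment 1 at 16 h, with 0.28 in CM against -0.92 in NCM. The alpha subunit ATP5F1A, which forms the same ring as the beta subunit, had -0.28 at 1 h and a mean of -0.07 after T0. The gamma subunit ATP5F1C, the turning shaft, and ATP5PO, which joins the ring to the peripheral stalk, had means of -0.07 and 0.07 after T0. With 1 experiment left out, these 3 means took both signs, from -0.12 to 0.03 for ATP5F1A, -0.16 to 0.01 for ATP5F1C and -0.06 to 0.17 for ATP5PO.

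ATP5MJ, a small membrane subunit, was lower in CM in all 9 pairs from 15 min to 1 h. Its values were 0.78, 0.50 and -0.15 in CM cultures at 15 min against 1.39, 0.74 and 0.59 in NCM cultures, a difference of -0.53 (SE 0.25). At 1 h they were 0.96, -0.03 and -0.0047 in CM cultures against 1.18, 0.44 and 1.10 in NCM cultures, a difference of -0.60 (SE 0.25). The groups overlapped at both times, and the early mean was -0.45 (SE 0.15, limma adjusted p 0.686). Of all genes, 0.320% were lower in CM in every pair of these 3 times. Among the 73 genes 1 other kept its sign, the complex I subunit NDUFB3. It was higher in CM in all 9 pairs, by 0.0047 to 0.37, where 0.373% of all genes were higher in every pair. At 3 h the sign of ATP5MJ turned, with 0.47, higher in CM in 3 of 3 pairs. A second probe of ATP5MJ did not follow, with -0.11 in the early mean and -0.50 at 3 h.

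Among the other membrane and stalk subunits, ATP5PB, the b subunit of the peripheral stalk, had -1.997, -1.38 and -1.44 in CM cultures at 6 h against -1.08, -0.99 and -1.08 in NCM cultures. These groups did not overlap, and the difference was -0.55 (SE 0.26, limma adjusted p 0.999). In the late mean ATP5PB had -0.40, lower in CM in 8 of 9 pairs. ATP5MC2, which encodes the c subunit of the rotor ring, had 0.62 at 15 min and -0.56 at 3 h, the widest swing in complex V. ATP5MC1, another gene of the same c subunit, had 0.29 and -0.01 at these times.

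Across all 65 subunits the median difference was -0.05 at T0, -0.06 at 15 min, -0.15 at 30 min, -0.08 at 1 h, -0.03 at 3 h, -0.08 at 6 h and 0.12 at 16 h, against medians of all genes within -0.02 and 0.02. Of the 65 subunits 39 lay below 0 and 26 above at T0, where 49.9% of all genes lay below and 50.1% above. There were 40 below and 25 above at 15 min (all genes 51.6% and 48.4%), 42 and 23 at 30 min (51.6% and 48.4%), and 40 and 25 at 1 h (50.6% and 49.4%). There were 35 below and 30 above at 3 h (50.1% and 49.9%), 42 and 23 at 6 h (52.7% and 47.3%), and 20 and 45 at 16 h (47.0% and 53.0%). The experiments did not share these signs. At 16 h the median of the subunits was 0.32 in experiment 1, 0.09 in experiment 2 and -0.08 in experiment 3, and without experiment 1 it was -0.02. At 30 min it was 0.09, -0.36 and -0.14 in experiments 1, 2 and 3, and without experiment 2 it was -0.02. In experiment 3 the median was below 0 at all 6 times after T0, with 40 to 48 of the 65 subunits lower in CM, whereas it was 0.04 at T0. The median of all genes in experiment 3 was also below 0 at 5 of these 6 times, with 47.3% to 59.3% of genes lower in CM.

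The 57 cytosolic ribosomal proteins, another group of housekeeping genes, had a median of the same sign as that of the subunits in 20 of the 21 pairs, and so had all genes in 18 of the 21. At 16 h their median was 0.59, -0.03 and -0.22 in experiments 1, 2 and 3, and at 30 min it was 0.07, -0.50 and -0.20. In experiment 3 it was -0.36 at 15 min, -0.37 at 1 h and -0.24 at 6 h. Their part in the medians of the respiratory chain was not tested.

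**Figure D4:**
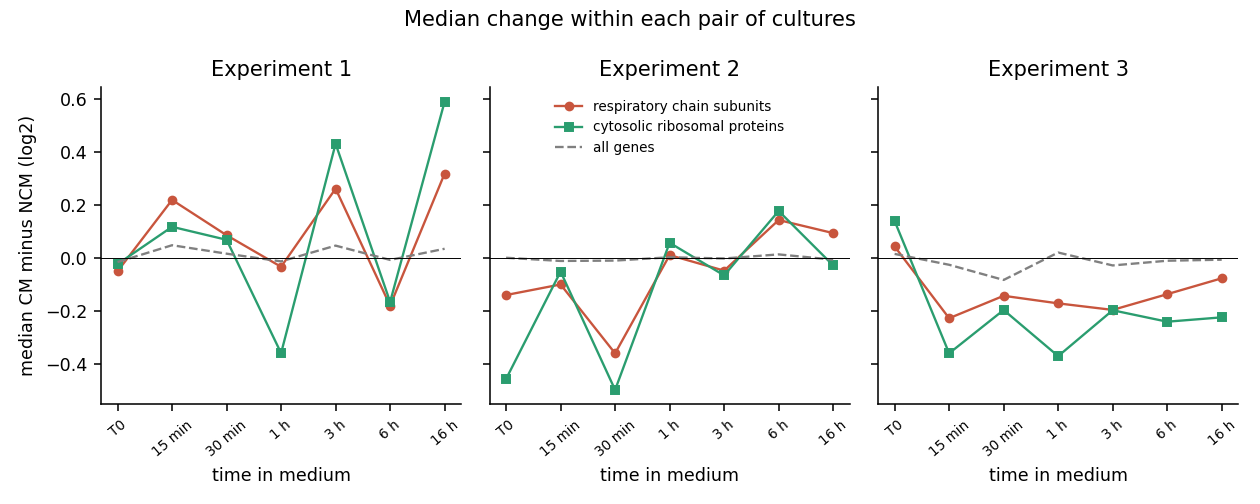
Median CM minus NCM difference on the log2 scale within each pair, by time in medium, with 1 panel for each experiment. Lines show the 65 respiratory chain subunits (red), the 57 cytosolic ribosomal proteins (green) and all 5631 genes (grey dashes). At 16 h the subunits lie at 0.32, 0.09 and -0.08 and the ribosomal proteins at 0.59, -0.03 and -0.22 in experiments 1, 2 and 3.

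Of the 73 genes, 4 were higher and 8 lower in CM in all 3 pairs at T0 (all genes 9.57% and 10%), 8 and 6 at 15 min (10.8% and 10.2%), and 2 and 10 at 30 min (8.13% and 13.2%). The counts were 8 higher and 11 lower at 1 h (14.7% and 12.8%), 9 and 12 at 3 h (13.5% and 12.6%), 5 and 10 at 6 h (12.8% and 12.6%), and 13 and 7 at 16 h (14.6% and 12.6%). The shares of lower genes lay near those of all genes. The shares of higher genes were under those of all genes at T0, 30 min, 1 h, 3 h and 6 h, most at 30 min and 6 h. They were above them at 15 min and 16 h, and these gaps were not tested. The CM and NCM values did not overlap for 5 of 73 genes at 15 min, 3 at 30 min, 2 at 1 h, 5 at 3 h, 3 at 6 h and 3 at 16 h, and for 0 at T0. Of all genes, 4.10%, 2.93%, 5.27%, 5.15%, 4.87%, 6.20% and 2.82% were without overlap at these times. The F test over the 6 times after T0 called 0 of the 73 genes. It gave an unadjusted p under 0.05 for 4 of them (NDUFB7, NDUFS6, COX6B1 and ATP5MJ), where all genes gave 2.81%. Changes between neighbouring times, and differences from T0, also gave 0 called genes in limma, with 0 to 4 of the 73 genes at an unadjusted p under 0.05 in each of these comparisons, where all genes gave 1.92% to 5.79%.

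In the control medium, 48 of the 65 subunits lay below 0 in the difference of 16 h minus T0, where 53.5% of all genes did, and limma called 0 of the 73 genes. Against the same T0 arrays, 48 lay below 0 at 15 min, 43 at 30 min, 46 at 1 h, 50 at 3 h and 45 at 6 h. Of the 5631 genes, 3154, 2980, 2996, 3029 and 2845 lay below 0 at these times. The excess was thus not particular to 16 h, and all these differences share the T0 arrays. At 16 h the median over the 65 subunits was -0.30, against -0.03 over all genes. At an unadjusted p under 0.05, 6 subunits were lower and 0 higher, where all genes gave 2.88% and 1.05%. By experiment the median was -0.23, -0.43 and -0.07, with 43, 44 and 35 of the 65 subunits below 0. The NCM array at T0 in experiment 2 had the lowest correlation of all arrays (0.807), and without experiment 2 the median was -0.21. By complex the medians were -0.25 in complex I, -0.31 in complex III, -0.28 in complex IV and -0.42 in complex V, where 14 of 16 genes lay below 0, and SDHA was at 0.37. NDUFS6 had -1.10 (SE 0.34) and ATP5MJ -0.97 (SE 0.37), each with a limma adjusted p of 0.998. The F test between the times in NCM called 0 of the 73 genes, and 1 (NDUFS6) had an unadjusted p under 0.05, where all genes gave 1.85%. With the experiment number as a term it also called 0 of the 73 genes. The NCM cultures of 16 h and T0 also enter the CM against NCM comparisons of those times, so these values are not independent of them.

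The genes around the respiratory chain had 0 called members in any comparison in limma, and each of the lists given next had 0 to 2 members at an unadjusted p under 0.05 in a comparison. The 11 measured assembly factors of 27 listed had medians of -0.17 to 0.15 over the 7 times, the 9 measured enzymes of 16 of the tricarboxylic acid cycle -0.12 to 0.02, and the 11 measured glycolytic enzymes of 16 listed -0.11 to 0.15. The 4 adenine nucleotide and phosphate carriers and porins measured of 7 had medians from -0.28 at 1 h to 0.13 at 15 min over the 7 times. Their median was -0.26 at 3 h and 0.09 at 16 h. The 3 electron transfer flavoprotein genes ETFA, ETFB and ETFDH, which feed electrons to ubiquinone, had medians of -0.18 to 0.23 over the 7 times. Of 12 regulators of mitochondrial genes 5 were measured (NRF1, GABPB1, TFB2M, PPARGC1A and YY1). All 5 lay above 0 at T0, with a median of 0.41, where 50.1% of all genes did. All 5 lay below 0 at 16 h, with a median of -0.28, where 47.0% of all genes did. The median SE was 0.28, and 0 of the 5 had an unadjusted p under 0.05 in limma at either time. In all 3 pairs, 2 of the 5 were higher in CM at T0 and 2 lower at 16 h.

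Of the genes caught by the prefix alone, COX7A2L had the largest late difference. Its values were 0.66, -0.06 and -0.41 in CM cultures at 16 h against 0.27, -0.89 and -0.59 in NCM cultures, and its late mean was 0.32 (SE 0.15, limma adjusted p 0.827), higher in CM in 8 of 9 pairs. NDUFAF3 had -0.43 and ATP5IF1 0.32 at 16 h, and NDUFAF5 had -0.59 at 30 min.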

How the data were processed

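Total RNA of 42 Hep3B cultures was measured on 42 arrays. The authors deposited linear intensities, 1 per probe and array, that average about 1 on each array. How the arrays were made, scanned, background corrected and scaled is not stated in the labels or files. Because the SD of the arrays' log2 medians was 0.31, over the limit of 0.1, intensities were quantile normalized, floored at the common 1st percentile (0.0812) and put on the log2 scale. No value of the 73 genes lay at the floor. The number of arrays limits the precision, and 3 cultures per group leave each difference with 3 pairs.

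Gene names came from the platform annotation, 7336 probes with 1 gene, 576 with several and 5912 with none, and 7322 of the 7336 matched a GRCh38.p14 gene table. Of the 73 genes 18 had several probes. Other probes are described singly only for NDUFB7, NDUFS6, COX6A1 and ATP5MJ. Values of the remaining genes with several probes, among them NDUFA5, CYC1, COX5B, COX7A2 and ATP5PO, are those of the brightest probe. The limma fit (limma 3.58.1, R 4.3.3) on all arrays gave every pair a term and every time a CM effect, with 14 residual and 6.26 prior degrees of freedom, two-sided moderated tests and Benjamini-Hochberg adjustment over 13824 probes at 0.05. Pairs come from the labels, and deviations within pairs correlated at 0.308 to 0.754 in all 21 pairs. The fit treated pairs of different times as independent, also where they share an experiment number. Counts and SEs over 9 or 18 pairs may therefore overstate the replication. Times within NCM were compared on 21 arrays with no block, because the labels do not say that an experiment number marks the same cells at different times. Lists were described by counts and medians. Named genes were those with the 2 smallest p-values in each direction of a comparison, the brightest and most variable of each complex, the listed core subunits, and genes added after their values were seen. The members, lists and tests were chosen with earlier results of these data known. The fit was tested on simulated data, with noise drawn independently for every value. That simulation therefore does not cover deviations shared by many genes of 1 array, such as those of the least correlated arrays. Alternatives were the normalization, floor, filter on dim probes, probe choice, centring on neighbouring probes, no pair term, an intensity trend, each time alone, the change minus T0, and leaving out experiments. Leaving out the pairs of the least correlated arrays was chosen after seeing the data. Figures used Python 3.11.15 with matplotlib 3.10.9 and pandas 2.3.3.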

Additional observations from a re-analysis of the deposited data

How the results depend on the processing

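The count of respiratory chain genes past the threshold was 0 at 16 h and became 1 (NDUFB7) without the dimmest 25% or 50% of probes, with the floor at the 10th percentile, with neighbour centring, with an intensity trend and robust spread, and without the 5 least correlated pairs. It also became 1 in the late mean without the dimmest 25% or 50% of probes, with the higher floor and with the intensity trend, and in the mean after T0 with the intensity trend. At 3 h it became 1 (NDUFS6, -1.60, from experiments 2 and 3 alone) without the least correlated pairs. The adjusted p of NDUFB7 at 16 h ran from 0.00199 with the intensity trend to 1.00 with no replicate block, and its difference from 0.83 with all probes averaged to 1.18 with median centring.

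Over all probes, 1 passed at 16 h. It was 0 with values as deposited, median centring, no replicate block, the change minus T0, each time alone and when any replicate was left out (range 0 to 0), 2 without the dimmest 25%, 7 without the dimmest 50%, 2 with the higher floor, 5 with neighbour centring, 3 with the intensity trend and 7 without the least correlated pairs. In the late mean, 6 passed, and the count was 1 as deposited, 1 with median centring, 2 with averaged probes, 0 with no replicate block or minus T0, 10 with the intensity trend, 3 without the least correlated pairs and 0 to 0 with a replicate left out. At 3 h, 0 became 1 without the dimmest 25% or 50%, with the higher floor, averaged probes, the intensity trend or without the least correlated pairs. At 15 min, 0 became 1 without the least correlated pairs, at 1 h 0 to 1 with a replicate left out, and after T0 1 without the dimmest 25% or 50% or with the higher floor and 2 with the intensity trend. The fit with the pairs as a block is the one reported, and no replicate block ended every call.

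Of the medians, complex I at T0 was -0.11 with neighbour centring and -0.003 in the reported fit. Complex V at 1 h was -0.040 with neighbour centring and -0.13 in the reported fit. Complex I at 6 h was 0.14 with median centring and -0.04 in the reported fit, and complex V at 3 h was -0.013 minus T0 and -0.15 in the reported fit. With a replicate left out, complex V at 3 h ran from -0.20 to -0.030, complex IV at 6 h from -0.30 to -0.064 and complex I at 16 h from -0.060 to 0.21. Values as deposited moved the median of all genes most at 16 h, by -0.105, and median centring most at 3 h, by -0.0968. With a replicate left out, 40 of the 60 medians of the subunits and complexes took both signs, as did 15 of the 61 values of named genes. Among the genes named for the smallest p-values, signs reversed for NDUFA8 at T0 (-0.13 with neighbour centring, -0.070 without the least correlated pairs, -0.070 to 0.63 with a replicate left out), CYC1 at 15 min (0.23 without those pairs, -1.001 to 0.23 with a replicate left out), NDUFB2 at 30 min (-0.14 without those pairs, -0.14 to 1.08 with a replicate left out) and ATP5MJ at 3 h (-0.013 with averaged probes). COX4I1 after T0, -0.15 in the reported fit, was 0.44 minus T0. The cause was not tested. Times within NCM with the pair as a block could not be fitted and were not run. The experiment number as a block over the 21 NCM arrays, added after seeing the data, left 0 of the 73 genes called, and 2 in place of 1 had an unadjusted p under 0.05. Deviations of NCM arrays from their time's mean correlated at a median of 0.244 between times for the same number and -0.119 for different numbers, with overlapping ranges. In addition, single-time fits give no value for means over times.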
